A study of Drosophila melanogaster with 6 samples.

Results

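RNase P is the ribonucleoprotein enzyme that cuts the 5′ leader from precursor tRNAs, and 4 of its protein subunits in Drosophila, Rpp14b, Rpp14a, Rpp20 and Rpp30, are described here. They were looked up on the array as probe sets whose annotation gives 1 gene symbol equal to a subunit. Rpp14b and Rpp30 each had 1 such probe set, so 2 of the 4 subunits were measured on their own, among 11982 genes named by 1 symbol. Rpp14a and Rpp20 were each represented by 1 probe set that also carries the name of another gene, CG7950 and CG33932 respectively. In the reference gene table each of these pairs has the same start and end, so a signal there cannot be assigned to either gene. Both are described as joint probe sets.

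In nuclei of animals and fungi, RNase P consists of 1 RNA and a set of proteins, and the related enzyme RNase MRP, which acts on ribosomal RNA precursors, shares most of those proteins. Rpp30 and Pop5 are core proteins of the enzyme in humans and yeast. In humans RPP14 resembles POP5 in its fold, while RPP20 and RPP25 form a pair that grips the enzyme's RNA. The fly has a pair of RPP14 homologues, Rpp14a and Rpp14b, which follow each other on chromosome arm 3R. A separate protein-only RNase P works in mitochondria.

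The samples were total RNA of S2 cells, hybridised to Affymetrix Drosophila Genome 2.0 arrays. S2 is a cultured line derived from Drosophila embryos with features of blood cells. The comparison was between 3 control arrays, labelled wild type, and 3 ROW RNAi arrays, from cells kept for 96 h with double-stranded RNA that targets ROW, a zinc finger protein found with the chromatin proteins HP1c and WOC. The labels give no double-stranded RNA for the controls, so loss of ROW and exposure to double-stranded RNA cannot be told apart, and they do not say that arrays came from separate cultures, so errors here may be technical. Values are RMA expression on the log2 scale. Levels of different probe sets are not compared, since probes differ in brightness, and in such bulk RNA fewer cells with a transcript and less of it per cell cannot be told apart.

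The row transcript was lower in every ROW RNAi array on its brightest probe set, at 10.4, 10.6 and 10.5 in the controls and 9.04, 8.91 and 8.91 after RNAi (log2 fold change −1.58, SE 0.07, limma adjusted p = 0.0023). On its other probe sets the log2 fold changes were −2.61 and −2.66 (SE 0.10 and 0.09, limma adjusted p = 0.0018 and 0.0017), so the remaining share of the control level depended on the probe set, with ratios of 0.335, 0.164 and 0.159. All 10 of the S2 and plasmatocyte markers examined lay above the background level, 3.39 on the log2 scale (the level under which 95% of the values of the 17 tag controls fell), with list means between 10.7 and 10.8 on each array. Of these markers Sr-CI rose by 0.62 (SE 0.07, limma adjusted p = 0.022) and He fell by 0.69 (SE 0.06, limma adjusted p = 0.010). Only these passed the threshold, which 1.16% of all tested probe sets did. Of the 10, 2 had all ROW RNAi arrays above and 5 all below the controls. Among all tested probe sets 7% and 14.4% did. The ROW RNAi arrays were not alike. On the first principal component, which held 66.9% of the variance, replicates 1 and 3 scored 42.7 and 20.8, while replicate 2 scored −19.5, inside the control range of −26.5 to −3.69. List means of the muscle markers, 3 of 5 measured, followed the same order. They were 4.53, 3.32 and 4.03 on the controls and 5.75, 3.85 and 5.01 after ROW RNAi. The widest spread among the 3 was that of sls, from 3.36 to 8.38 in that order. Mlc2 kept the order within each group, but its ROW RNAi replicate 2 (3.87) lay above all controls. The third, up, stayed between 3.28 and 3.59. None of the 3 passed the test, and their part in the values below was not tested. Neuron markers (4 of 5 measured) had list means of 6.73 to 6.87 in control and 6.64 to 6.80 in ROW RNAi arrays. Those of fat body (3 of 5 measured) were 3.60 to 3.74 in either group.

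Rpp14b was about 5-fold higher after ROW RNAi, while Rpp30 and the joint probe sets of Rpp14a and Rpp20 differed by less than 0.05 on the log2 scale. Rpp14b, also known as CG15526, stood at 5.90, 5.97 and 5.74 in control replicates 1, 2 and 3. In ROW RNAi replicates 1, 2 and 3 it stood at 8.19, 7.99 and 8.40. All 3 ROW RNAi arrays lay above all 3 controls, with a gap many times the width of either group. The means were 5.87 ± 0.12 and 8.19 ± 0.21 (log2, SD, n = 3 arrays each). The log2 fold change was 2.32 (SE 0.12, 95% interval 2.02 to 2.62). As a ratio this was 5.0, with an interval of 4.05 to 6.16. Over the 9 pairs of a ROW RNAi and a control array, the smallest difference was 2.02 and the largest 2.66, or 4.05-fold and 6.32-fold.

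The genes were chosen by this rise of Rpp14b between the same arrays, so it is given as a description and no p-value is given for any of the 4 subunits. The difference ranked highest of all 18769 tested probe sets. Rpp14b was chosen as the named gene with the largest rise, so nothing is read from this rank. The next in that order were probe sets of PlexB (1.88, SE 1.04), a probe set without a gene name (1.80, SE 1.12) and vas (1.72, SE 0.84), whose standard errors were many times that of Rpp14b. The control level of Rpp14b lay above the background of 3.39 on every array, so the difference was measured on both sides. Within the ROW RNAi group it was lowest on replicate 2, the array closest to the controls on the first principal component. Without that array the log2 fold change was 2.42. The plot of Rpp14b under each alternative of the processing shows the estimates side by side.

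**Figure D1:**
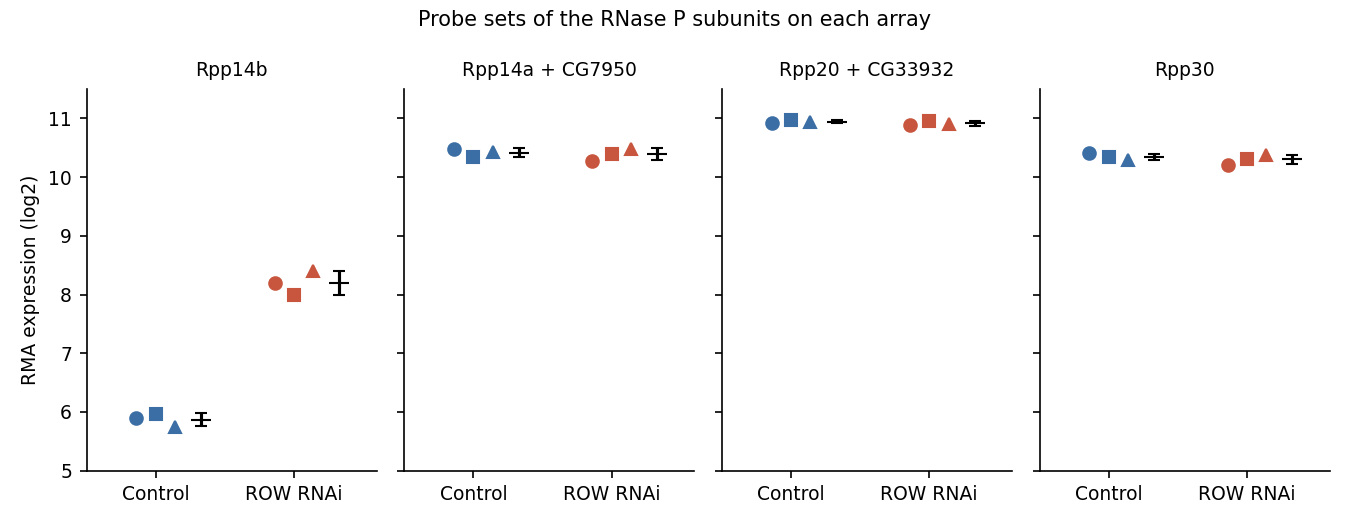
RMA expression (log2, vertical axis) of the 4 probe sets on each array, with circles, squares and triangles for replicates 1, 2 and 3 of the control (blue) and ROW RNAi (red) arrays, and black bars for the mean and SD of 3 arrays. Rpp14b moves from a mean of 5.87 to 8.19, while the groups overlap on the other 3 probe sets.

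**Figure D2:**
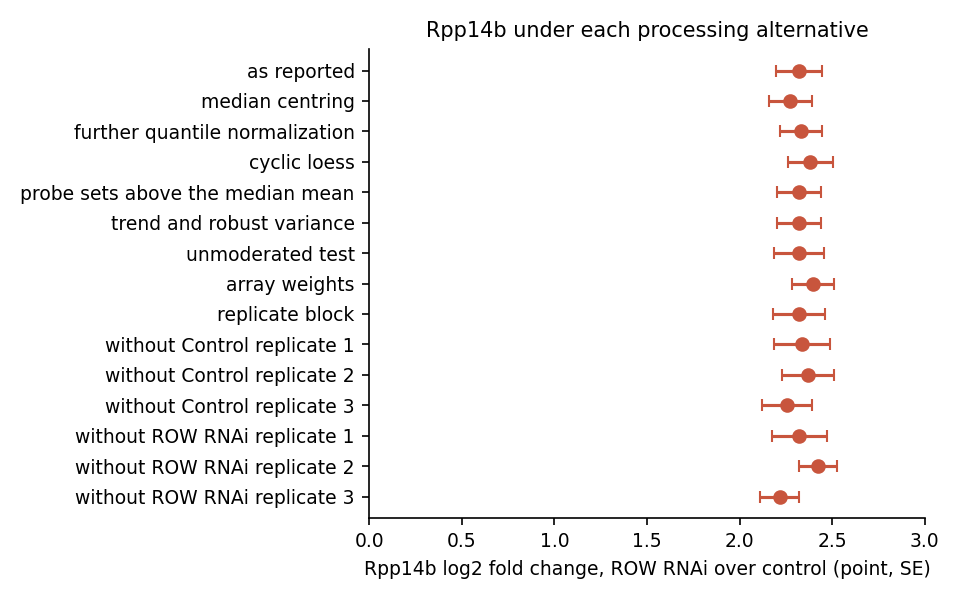
Log2 fold change of Rpp14b (horizontal axis, ROW RNAi over control, bars are the SE) as reported and under 14 alternatives. The estimates lie between 2.22 and 2.42. Dropping dim probe sets, trend and robust variance, the unmoderated test and the replicate block keep the reported estimate by construction and change only its SE.

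Rpp30, a core protein shared by RNase P and RNase MRP, was at 10.4, 10.3 and 10.3 in the controls and 10.2, 10.3 and 10.4 after ROW RNAi. The groups overlapped, and in 3 of the 9 array pairs the ROW RNAi array was the higher one. The log2 fold change was −0.05 (SE 0.06), and the 95% interval of the ratio ran from 0.869 to 1.08.

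The joint probe set of Rpp14a and CG7950 measures the locus that follows Rpp14b on arm 3R. It stood at 10.5, 10.3 and 10.4 in the controls and 10.3, 10.4 and 10.5 after ROW RNAi. Its groups overlapped too, with a log2 fold change of −0.03 (SE 0.07) and an interval of the ratio from 0.863 to 1.11. For the joint signal these bounds leave out any rise of the size measured for the neighbour Rpp14b, within the precision of 3 arrays a group. They do not exclude that Rpp14a and CG7950 changed in opposite directions, since the probe set does not separate them. Nor do they exclude a rise of either gene alone, if it supplies only a small share of the signal.

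The joint probe set of Rpp20 and CG33932 on the X chromosome had the smallest spread of the 4 probe sets, at 10.9, 11.0 and 10.9 on the controls and 10.9, 11.0 and 10.9 after ROW RNAi. Its log2 fold change was −0.03 (SE 0.05), with an interval of the ratio from 0.903 to 1.06. Of the 4 probe sets, 1 passed an adjusted p of 0.05 in limma, which 1.16% of all tested probe sets did, and 1 had all ROW RNAi arrays above all controls, as did 7% of all tested probe sets. Because this comparison chose Rpp14b, nothing is read from these counts. The median over the 4 was −0.03, the same as over all tested probe sets (−0.03).

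Other proteins of the nuclear enzyme, which were not among the 4, gave no member past the threshold. Only 1.16% of all tested probe sets passed it, so a set this small would mostly hold none. Of 10 names listed 5 were measured, 2 above 0 and 3 below, with a median log2 fold change of −0.02. Pop5, the core protein that RPP14 resembles in humans, was at 10.7, 10.7 and 10.6 in the controls and 10.6, 10.6 and 10.8 after ROW RNAi (−0.02, SE 0.08, limma adjusted p = 0.91). Rpp25, whose human counterpart binds the RNA together with RPP20, was at 10.8, 10.7 and 10.7 against 10.7, 10.6 and 10.8 (−0.02, SE 0.07, adjusted p = 0.90 in limma). Neither showed a shift beyond the spread of its arrays.

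Pop4, the homologue of human RPP29, differed by 0.01 (SE 0.07, limma adjusted p = 0.97). Rpp21 was measured with less precision, at 5.11, 5.04 and 4.80 in the controls and 4.45, 5.13 and 4.99 after ROW RNAi (−0.13, SE 0.20, limma adjusted p = 0.78). For Rpp21 the 95% interval, −0.61 to 0.35, excludes a rise as large as that of Rpp14b. Pop1, the largest protein of the enzyme, gave the highest difference of the 5 at 0.47 (SE 0.23, limma adjusted p = 0.43), from 3.42, 3.03 and 2.96 to 4.01, 3.58 and 3.23. Its mean over all arrays was below the background of 3.39, and its groups overlapped, so its value carries little information on the transcript.

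The mitochondrial enzyme is built from 3 proteins, all measured. None passed the threshold, which only 1.16% of all tested probe sets did. The methyltransferase subunit rswl stood at 8.87, 8.92 and 9.02 in the controls and 8.77, 8.81 and 8.74 after ROW RNAi, a difference of −0.17 (SE 0.06, limma adjusted p = 0.31). The nuclease subunit mldr differed by −0.03 (SE 0.08, limma adjusted p = 0.87). The dehydrogenase subunit scu differed by 0.04 (SE 0.04, limma adjusted p = 0.72). Of the 3, 1 had all ROW RNAi arrays above and 1 all below the controls, where 21.4% of all tested probe sets did one or the other.

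**Figure D3:**
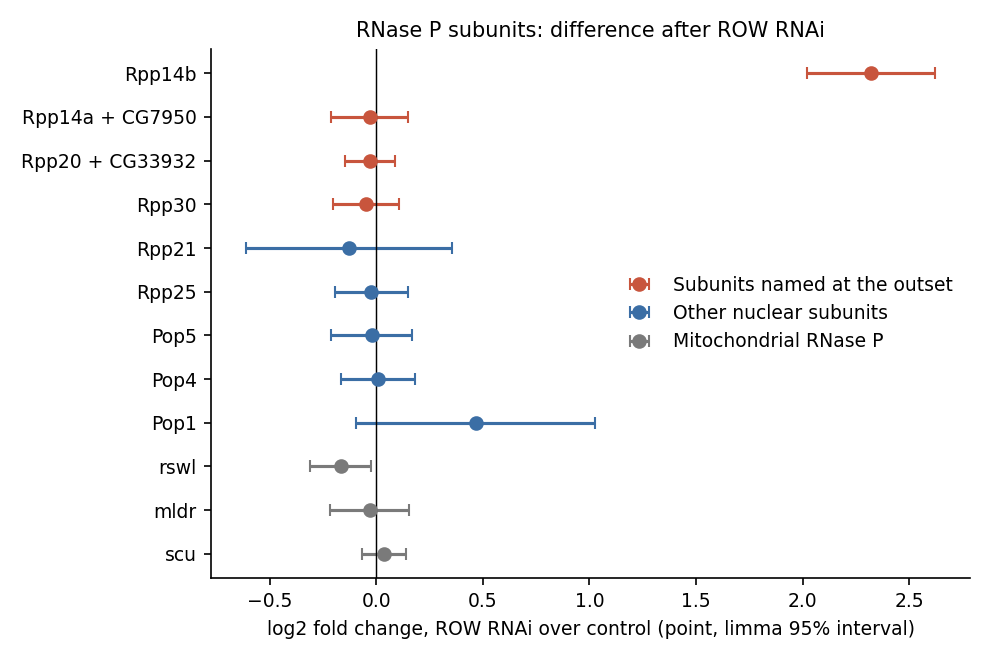
Log2 fold change (horizontal axis, ROW RNAi over control) with the 95% interval of limma for the 4 probe sets of the subunits named at the outset, 5 other nuclear subunits and 3 subunits of the mitochondrial enzyme. Rpp14b stands at 2.32, and the other 11 estimates lie between −0.17 and 0.47.

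The subunit transcripts also varied from array to array within a group. Of the 9 probe sets of nuclear subunits, 6 were highest on ROW RNAi replicate 3 among the ROW RNAi arrays. These were Rpp14b, Rpp30, Pop4, Pop5, Rpp25 and the joint probe set of Rpp14a, and 26.3% of all tested probe sets were highest on that array. Among the controls 6 of the 9 were highest on replicate 1, against 28.4% of all tested probe sets. On control replicate 3, 0 were highest, against 35.7% of all tested probe sets. Apart from Rpp14b, this spread between arrays of a group was as large as or larger than the difference between the groups for Rpp30, Rpp25, Pop4, Pop5, Rpp21 and both joint probe sets.

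Among the measured genes around Rpp14b on the chromosome none passed the test. The nearest 3 genes with a probe set of their own were taken on each side, whatever their strand. In limma 0 of these 6 passed the test, with adjusted p-values between 0.40 and 0.97, as against 1.16% of all tested probe sets. At an unadjusted p under 0.05 there were 0 of the 6, against 13.8% of all tested probe sets, so a set this small would often hold none. Some annotated genes in this stretch have no probe set of their own and are not analysed here. The log2 fold changes of the 6 measured genes lay between −0.16 and 0.06 with a median of −0.07. On one side Jasper, which encodes a PWWP-domain partner of the kinase JIL-1, was at 10.3, 10.2 and 10.2 in the controls and 10.2, 10.2 and 10.2 after ROW RNAi (−0.03, SE 0.05). Farther out were CG15528 (−0.16, SE 0.08) and CG7943 (0.06, SE 0.06).

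On the other side the joint locus of Rpp14a and CG7950 comes first, described above, and then sima, which encodes the hypoxia-inducible factor of the fly. For sima the controls stood at 8.70, 8.79 and 8.83 and the ROW RNAi arrays at 8.66, 8.69 and 8.58, a difference of −0.13 (SE 0.06, limma adjusted p = 0.40). All its ROW RNAi arrays lay below the controls, as in 14.4% of all tested probe sets. Ppi1, an inhibitor of protein phosphatase, was below background (0.02, SE 0.15), and CG31029 differed by −0.11 (SE 0.08).

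**Figure D4:**
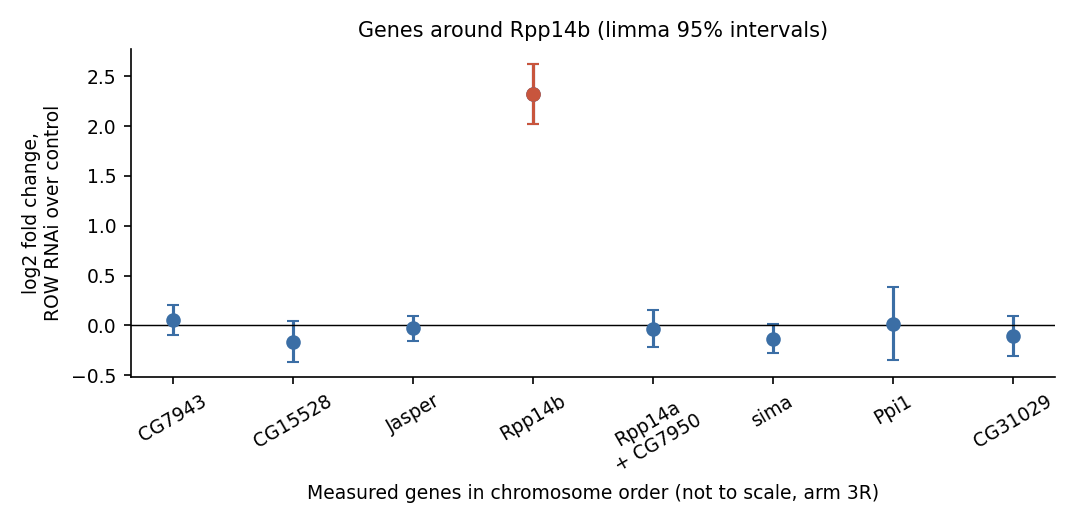
Log2 fold change (vertical axis, ROW RNAi over control, limma 95% intervals) of Rpp14b (red) and of the measured genes around it (blue) in their order on arm 3R, with distances not drawn to scale. The 7 other probe sets lie between −0.16 and 0.06.

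Genes next to the other subunits were followed in the same way, 2 on each side. Beside Rpp20 these were CG18809 (−0.14, SE 0.05), CG14234 (0.11, SE 0.14, below background), parvin, a partner of integrin-linked kinase (0.05, SE 0.04), and Alr, a sulfhydryl oxidase of mitochondria (−0.15, SE 0.07). Beside Rpp30 they were CG13693 (0.39, SE 0.34), kis, a chromatin remodeller (−0.03, SE 0.05), Dus1, a dihydrouridine synthase acting on tRNA (−0.10, SE 0.05), and CG17075 (−0.20, SE 0.15). CG13693 varied most among the ROW RNAi arrays, at 5.14, 3.76 and 4.46, in the order of the first principal component. Over the 14 different neighbours of the 4 subunits 0 passed the test in limma in either direction, as against 1.16% of all tested probe sets. At an unadjusted p under 0.05 there was 1 of the 14, against 13.8% of all tested probe sets.

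The wider pathways in which RNase P works were followed with 7 gene lists, 78 genes in all, including the nuclear and mitochondrial subunits above. None passed the test in limma in either direction, and the smallest adjusted p was 0.13. Over all tested probe sets 0.405% passed as higher and 0.757% as lower. At an unadjusted p under 0.05 there were 13, all lower, or 16.7% of the 78. Of all tested probe sets 13.8% had such a p, but that share counts both directions, so the shares are not alike. All ROW RNAi arrays lay below all controls for 27 of the 78 and above them for 2. Over all tested probe sets these shares were 14.4% and 7%. The median log2 fold change of all 78 was −0.06 against −0.03 over all tested probe sets. In the lists 63 of 78 genes, or 80.8%, were below 0, against 58.3% of all tested probe sets. The lists hold only the brightest probe set of each gene, while all tested probe sets include many dim and unnamed ones. Genes of a pathway vary together, so these counts are descriptions of the lists.

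RNA polymerase III transcribes tRNAs. Of 17 of its subunits and factors 16 were below 0, with a median of −0.08 and 0 past the threshold in either direction. Bdp1, a subunit of the initiation factor TFIIIB, was at 10.2, 10.2 and 10.1 in the controls and 9.97, 9.90 and 9.95 after ROW RNAi. Its difference was −0.23 (SE 0.05, limma adjusted p = 0.13), with all ROW RNAi arrays below the controls, as in 14.4% of all tested probe sets. The gene l(2)37Cd differed by −0.22 (SE 0.05, limma adjusted p = 0.14), from 9.45, 9.50 and 9.49 to 9.31, 9.23 and 9.23. At the other end were Maf1, the repressor of the polymerase (−0.00, SE 0.05), and Trf, a TBP-related factor (0.01, SE 0.05). The differences of Bdp1 and l(2)37Cd passed among probe sets above the median mean (limma adjusted p = 0.026 and 0.029) and with trend and robust variance (0.017 and 0.035).

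Other steps of tRNA maturation are 3′ end processing and the splicing of those tRNAs that hold an intron, and all 9 of 9 measured genes of this list were below 0 (median −0.09). Tsen34, a subunit of the tRNA splicing endonuclease, had the largest difference at −0.34 (SE 0.13, limma adjusted p = 0.35), from 5.60, 5.30 and 5.16 to 5.12, 4.86 and 5.04. Its partner Tsen54 differed by −0.14 (SE 0.07) and Tsen15 by −0.03 (SE 0.05). The RNA kinase homologue cbc differed by −0.03 (SE 0.06).

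Among 17 genes of tRNA modification 15 were below 0, with a median of −0.07. The pseudouridine synthase gene Pus7 was at 8.44, 8.53 and 8.46 in the controls and 8.21, 8.30 and 8.26 after ROW RNAi (−0.22, SE 0.05, limma adjusted p = 0.16). It passed only among the probe sets above the median mean (limma adjusted p = 0.040), out of the alternatives run. Ctu2, which takes part in thiolation of the wobble uridine, differed by −0.18 (SE 0.05), the methyltransferase subunit Trmt6 by 0.00 (SE 0.06) and Tcs3, of the KEOPS complex, by 0.07 (SE 0.06).

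The exosome, the complex that degrades and trims RNA from the 3′ end, had 11 measured genes, 7 of them below 0, and a median of −0.01. Its helicase Mtr4 differed by −0.18 (SE 0.05, limma adjusted p = 0.25) and its nuclease Rrp6 by −0.18 (SE 0.06), while Rrp46 and the nuclease Dis3 stood at 0.03 and 0.07 (SE 0.09 each). Of 16 genes of small nucleolar ribonucleoproteins and ribosomal RNA maturation 11 were below 0 (median −0.06). The nucleolar protein gene mbm differed by −0.22 (SE 0.05, limma adjusted p = 0.15), and passed among probe sets above the median mean (limma adjusted p = 0.037) and with trend and robust variance (0.031). The gene l(3)72Dn stood at −0.16 (SE 0.05), and Nop17l and Nop10, a protein of the pseudouridylation particles, at 0.05 and 0.06 (SE 0.05 and 0.09).

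**Figure D5:**
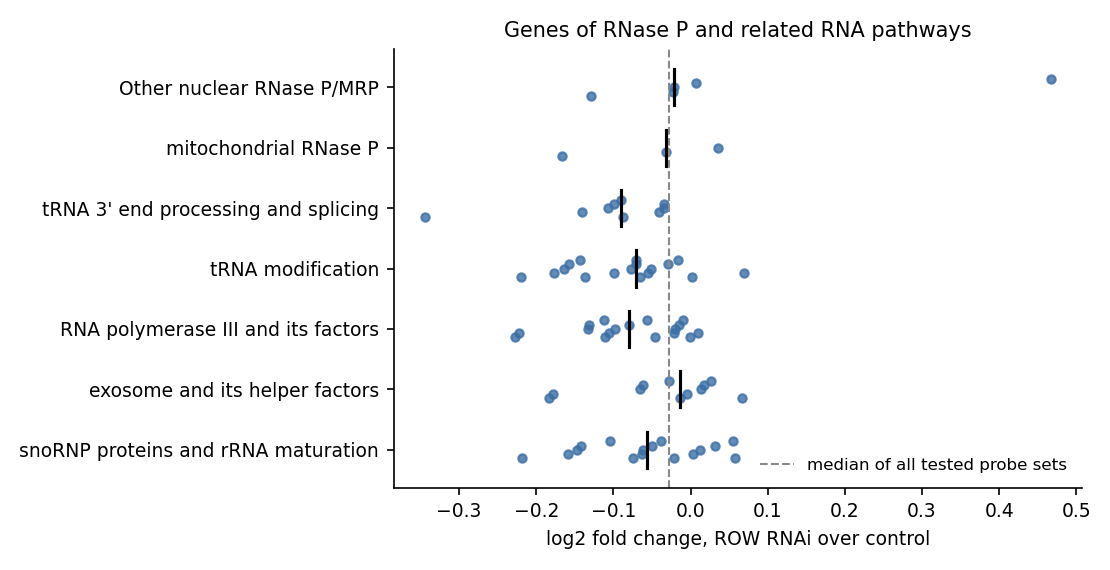
Log2 fold change (horizontal axis, ROW RNAi over control) of each gene in 7 lists around RNase P, 1 point per gene, offset vertically for legibility. Black bars are list medians, from −0.09 to −0.01, and the dashed line is the median of all tested probe sets (−0.03).

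The genes whose pattern over the 6 arrays was most like that of Rpp14b were found by the root mean square difference of log2 values after each probe set's control mean was subtracted. Among 7287 genes, the nearest 5 were atilla, pyr, CG31219, Prip and BicC, with differences of 0.54, 0.62, 0.79, 0.80 and 0.83 on the log2 scale. Each of these had its ROW RNAi arrays above the controls, which the measure favours, so no test is given. The surface protein gene atilla was at 6.17, 6.04 and 6.01 in the controls and 7.85, 7.37 and 7.74 after ROW RNAi. Like Rpp14b it was lowest on ROW RNAi replicate 2 within its group.

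The growth factor gene pyr went from 5.01, 4.70 and 4.62 to 6.62, 5.89 and 6.31, again with replicate 2 lowest. CG31219 went from 8.34, 8.17 and 8.08 to 9.35, 9.43 and 9.45. The aquaporin gene Prip went from 8.21, 8.25 and 8.19 to 9.33, 9.36 and 9.54, and its other probe set from 4.02, 3.29 and 4.22 to 4.44, 4.20 and 4.26. In CG31219 and Prip replicate 2 was not the lowest of the ROW RNAi arrays. BicC, which encodes an RNA-binding repressor of translation, varied most, from 5.10, 4.33 and 4.33 to 6.42, 5.18 and 6.03 (1.29, SE 0.38). Its spread followed the order of the arrays on the first principal component within the ROW RNAi group. The values of atilla and pyr followed that order too, while those of Rpp14b did not. The lowest ROW RNAi value of BicC was 5.18 against a highest control value of 5.10. The nearest of these genes, atilla, was 2.99-fold higher on average, against 5.0-fold for Rpp14b. Since Rpp14b was chosen for the largest rise among named genes, a smaller rise of the others was fixed in advance.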

How the data were processed

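Expression was measured on 6 Affymetrix Drosophila Genome 2.0 arrays, 3 control and 3 ROW RNAi, grouped by sample title. The deposited table gives a log2 value for each probe set and array, made with RMA (background correction, quantile normalization, summary over probes) per the submitters' processing notes. No version of it is named there. RMA hides a shift shared by most transcripts and can compress fold changes, and the number of arrays limits the precision.

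Of 18952 probe sets, 183 controls were left out and 18769 tested. Gene symbols came from the platform annotation, updated by gene ID with the Release 6 reference gene table (13544 of 13647 probe sets with 1 symbol matched). The annotation names no genome build, so the table served for names and gene order only and no coordinates are printed. Sequences are not used here.

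All probe sets were fitted together with limma 3.58.1 (lmFit and eBayes, two-sided) in R 4.3.3, with Benjamini-Hochberg adjustment and a threshold of 0.05. SE and 95% intervals are limma's moderated ones. Each gene is given by its brightest probe set. On simulated data with the spreads of the 18769 probe sets in this comparison, the fit recovered 52% of changes of 0.585 on the log2 scale, 76% of 1, 98% of 2 and 98% of 3, with 9 other probe sets called. Smaller changes were not simulated. Figures were drawn with matplotlib 3.10.9.

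The members, lists and tests were chosen with earlier results of these data known. Named genes were all probe sets of the 4 subunits, row, in each list those past the threshold and, where fewer than 4, the 2 highest and 2 lowest, the neighbours, and the 5 genes most like Rpp14b among those with at least 1 group mean above the array-wide median. PlexB, vas and a probe set without a name were added after their values were seen. Marker lists held S2 and plasmatocyte, neuron, muscle and fat body genes. Alternatives were median centring, a further quantile normalization, cyclic loess, a filter that drops dim probe sets, trend and robust variance, an unmoderated test, array weights, replicate number as a blocking term, each array left out in turn, and averaging all probe sets of a gene.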

Additional observations from a re-analysis of the deposited data

How the results depend on the processing

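The log2 fold change of Rpp14b moved by less than the spread between replicates under all 14 alternatives run, between 2.22 and 2.42. Dropping dim probe sets, trend and robust variance, the unmoderated test and the replicate block cannot move a log2 fold change here. It stayed at 2.32 under each of them by construction, so they are no check of its size. The same holds for the other probe sets. Rpp30 stayed between −0.09 and −0.00 and the joint probe set of Rpp14a and CG7950 between −0.08 and 0.02 (above 0 without control replicate 1 and without ROW RNAi replicate 1). The joint probe set of Rpp20 and CG33932 stayed between −0.08 and −0.01, with −0.077 under median centring, more than its spread between replicates. Without 1 array the log2 fold changes ran from 2.22 to 2.42 for Rpp14b, −0.08 to 0.02 for Rpp14a and CG7950, −0.05 to −0.01 for Rpp20 and CG33932, −0.08 to −0.00 for Rpp30 and −1.62 to −1.54 for row.

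Over all tested probe sets, the counts higher (76) and lower (142) moved to 33 and 74 with median centring, 207 and 368 when dim probe sets were dropped (those under the median mean), 222 and 336 with trend and robust variance, and 43 and 79 with the unmoderated test. Without 1 array they ran from 5 to 259 and from 19 to 258. The highest of each came without ROW RNAi replicate 2, and the others gave 5 to 18 higher and 19 to 46 lower. List genes past the threshold (0 higher, 0 lower) came to 4 lower without the dim probe sets (Pus7, Bdp1, l(2)37Cd and mbm), where fewer were tested, and to 3 lower with trend and robust variance (Bdp1, l(2)37Cd and mbm). Neighbour genes gave 0 past the threshold in each alternative. Apart from the fewer probe sets or arrays, the cause was not tested.

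With the replicate number as a block, 0 probe sets were higher and 0 lower, 0 of the 4 subunit probe sets passed (a count from which nothing is read, since this comparison chose Rpp14b), and row stood at −1.58 (limma adjusted p = 0.056). Rpp14b stayed at 2.32 (SE 0.14). Arrays of the same number deviated from their group means with correlations of 0.48, 0.55 and −0.04, and the labels name no shared culture or day, so the numbers were not taken to pair the arrays. Dim probe sets such as those of Pop1 and Ppi1 limit what can be seen of their transcripts.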
